A study of Mus musculus with 12 samples.

Results

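The interferon-gamma induced GTPases are 2 related families of cytosolic enzymes, the immunity-related GTPases (IRGs) and the guanylate-binding proteins (GBPs). The 10 genes described here, Iigp1, Igtp, Irgm1, Irgm2, Gbp2, Gbp3, Gbp4, Gbp5, Gbp6 and Gbp7, are 10 of the 22794 genes in the deposited count table, and all 10 passed the filter on low counts that left 14412 genes for testing. The set was chosen by the levels of Iigp1 and Gbp6, which had been seen to peak in single libraries, so the levels of those genes across libraries are given as a description, with no p-value. Poly(A) RNA was sequenced from cardiomyocytes isolated from hearts of wild-type C57BL6 mice, killed 16 weeks after surgery. The 4 groups, with 3 libraries each, were mice with 5/6 nephrectomy (NX) injected with JV101, NX mice injected with saline, sham-operated mice injected with JV101 and sham-operated mice injected with saline. NX removes most of the kidney mass and is used as a model of chronic kidney disease. What JV101 is, and the age of the mice, were not given in the sources used here. Nothing in the labels says whether replicates came from separate mice, so the spread behind each p-value is that of these libraries and may be in part technical.

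In cells exposed to interferon-gamma, the receptor-bound kinases Jak1 and Jak2 start a signal that reaches gamma-activated sites (GAS) in the DNA, and the factor Irf1 binds interferon-stimulated response elements (ISRE). IRGs and GBPs are among the most strongly induced targets of this pathway in mice, in immune and in many other cell types. Their products assemble on membranes that enclose bacteria and parasites and damage them. Iigp1 encodes an effector IRG that coats such vacuoles, whereas Irgm1, Irgm2 and Igtp encode regulatory IRGs that sit on the membranes of the host's own organelles and hold the effectors inactive there. GBPs oligomerise on the opened vacuoles and on freed bacteria, and Gbp5 is known in mice as a promoter of inflammasome assembly. In hearts these genes are known mainly as responders to interferon in infection, inflammation and transplant rejection.

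RefSeq promoter windows (assembly GRCm38.p6) were found for 7 of the 10 genes: Gbp2, Gbp3, Gbp5, Gbp7, Igtp, Irgm1 and Irgm2. Gbp4, Gbp6 and Iigp1 had no entry. The stretches that hold the response element letters nearest to the start are shown 5′ to 3′ on the gene's own strand, each ending at the base before the transcription start. They are shown as a description, since the letters are those of the pathway's known response elements. The part of these letters in the levels was not tested. Capitals mark GAS letters (TTCNNNGAA, the same on both strands) and ISRE core letters (GAAA, any 2 bases, GAAA, or the reverse complement of this).
Igtp: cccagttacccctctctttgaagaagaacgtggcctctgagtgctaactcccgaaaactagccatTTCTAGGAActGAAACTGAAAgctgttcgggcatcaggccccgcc
Irgm2: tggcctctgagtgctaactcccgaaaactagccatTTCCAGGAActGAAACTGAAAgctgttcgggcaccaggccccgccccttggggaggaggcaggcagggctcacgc
Irgm1: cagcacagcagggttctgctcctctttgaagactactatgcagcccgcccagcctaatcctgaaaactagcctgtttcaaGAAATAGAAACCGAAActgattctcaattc
Gbp2: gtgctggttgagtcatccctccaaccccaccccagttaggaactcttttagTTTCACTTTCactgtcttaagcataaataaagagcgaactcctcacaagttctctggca
Gbp3: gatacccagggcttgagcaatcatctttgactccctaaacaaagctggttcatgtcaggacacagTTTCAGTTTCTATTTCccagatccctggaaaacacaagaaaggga
Gbp7: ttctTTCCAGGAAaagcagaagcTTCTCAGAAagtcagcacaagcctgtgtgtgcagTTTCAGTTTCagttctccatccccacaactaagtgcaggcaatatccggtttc
Gbp5: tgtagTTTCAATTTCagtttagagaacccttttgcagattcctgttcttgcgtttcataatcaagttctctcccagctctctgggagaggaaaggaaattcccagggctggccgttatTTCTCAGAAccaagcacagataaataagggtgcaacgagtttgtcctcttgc

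These stretches lie on the plus strand at chr11:58199446-58199555 (Igtp), chr11:58214867-58214976 (Irgm2), chr3:142620553-142620662 (Gbp2), chr3:142559934-142560043 (Gbp3), chr3:142530226-142530335 (Gbp7) and chr3:142496764-142496933 (Gbp5), and on the minus strand at chr11:48871421-48871530 (Irgm1). All coordinates are of GRCm38.p6 and cover sequence upstream of the first exon. The deposited counts were made on GRCm39, per the submitters' processing notes, so the coordinates were not joined to the counts. In the 250 bases before the start, ISRE core letters stood in 7 of the 7 genes (7 of their 8 windows), against 2.98% of 32851 RefSeq mouse promoter windows of the same length. GAS letters stood in 4 of the 7 (Igtp, Irgm2, Gbp7 and Gbp5), against 7.02% of all windows, and 0.332% of all windows held both. In Irgm1 and in Gbp3 the capitals cover 2 overlapping ISRE core matches. Gbp5 has another GAS match that starts 245 bases before the start, outside the printed stretch.

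Igtp and Irgm2 share nearly the whole stretch around these letters. The GAS letters stood 45 bases before the start in Igtp and 75 bases before it in Irgm2, and in both genes 2 bases separated them from the ISRE core letters. Over 100 bases aligned on the GAS letters, 92 were identical between the genes, and the longest identical run held 55 bases. In Gbp7 and Gbp5 the GAS and ISRE letters stood further apart, as the map of the matches shows. A match of letters is a description of the sequence, and no binding was measured.

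**Figure D1:**
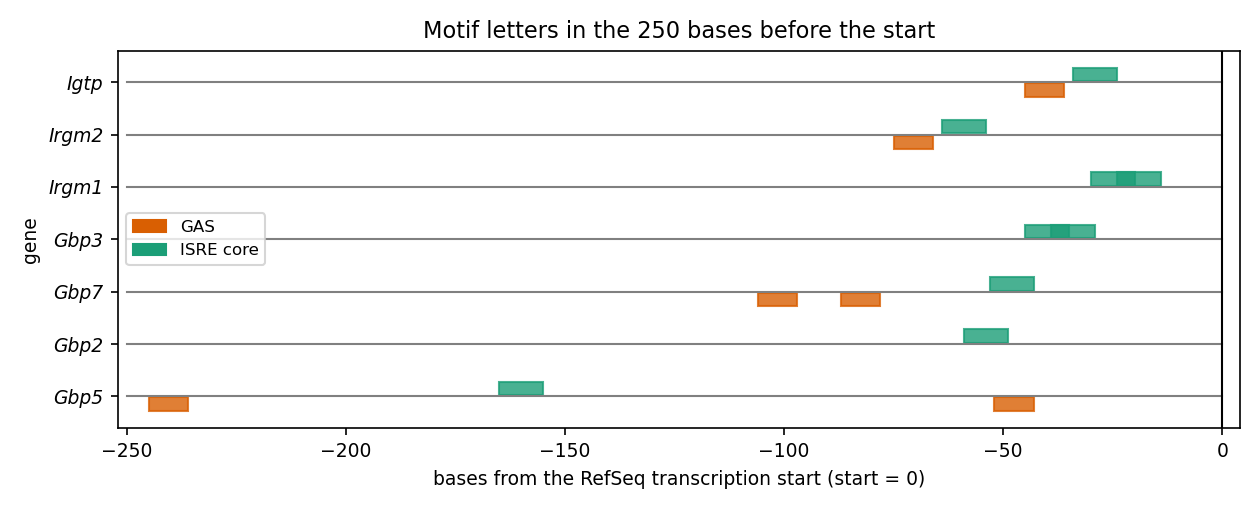
Positions of GAS letters (orange, below the line) and ISRE core letters (green, above the line) in the 250 bases before the RefSeq start of 7 GTPase genes; the horizontal axis gives bases from the transcription start. ISRE letters are present in 7 of 7 genes and GAS letters in 4, next to each other in Igtp and Irgm2.

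Total counts per library ran from 26407125 to 33834238, and 36.7% to 69.0% of these fell on the 13 mitochondrially encoded genes in the table. Summed levels of 10 cardiomyocyte markers (Myh6, Myl2, Tnnt2 and others) ran from 36144 to 61043 CPM (counts scaled to the library's total with TMM factors), so the labelled cell type was present in every library. Markers of other heart cells were also there, and the summed CPM over the libraries other than NX JV101 replicate 3 and sham saline replicate 1 ran from 308 to 1752 for endothelial cells, 156 to 804 for macrophages and 215 to 1193 for fibroblasts. These are bulk samples, in which more cells of a type and more RNA per cell cannot be told apart.

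The main feature of the family was a pair of libraries from different groups. NX JV101 replicate 3 and sham saline replicate 1 were the highest 2 of the 12 libraries for 10 of the 10 genes, under TMM scaling, under 3 other scalings of the counts and in the deposited FPKM (fragments scaled to gene length and to the counted reads of the library). The same pair took the first 2 places in 239 of the 14412 tested genes (1.66%). The levels of Iigp1 and Gbp6 were used to choose the set, and the other 8 genes vary together with them. The share is thus given as a description, and the 10 genes are not separate support for the pattern. Relative to the median of the other 10 libraries, the 4 IRG genes stood 6.88 to 19.3 times higher in NX JV101 replicate 3 and 7.26 to 19.9 times higher in sham saline replicate 1. The 6 GBP genes stood 2.99 to 4.65 times higher in NX JV101 replicate 3 and 4.51 to 6.56 times higher in sham saline replicate 1. The animals behind these libraries had neither the surgery nor the injection in common, so every comparison of groups below holds 1 of these libraries in at least 1 of its arms.

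**Figure D2:**
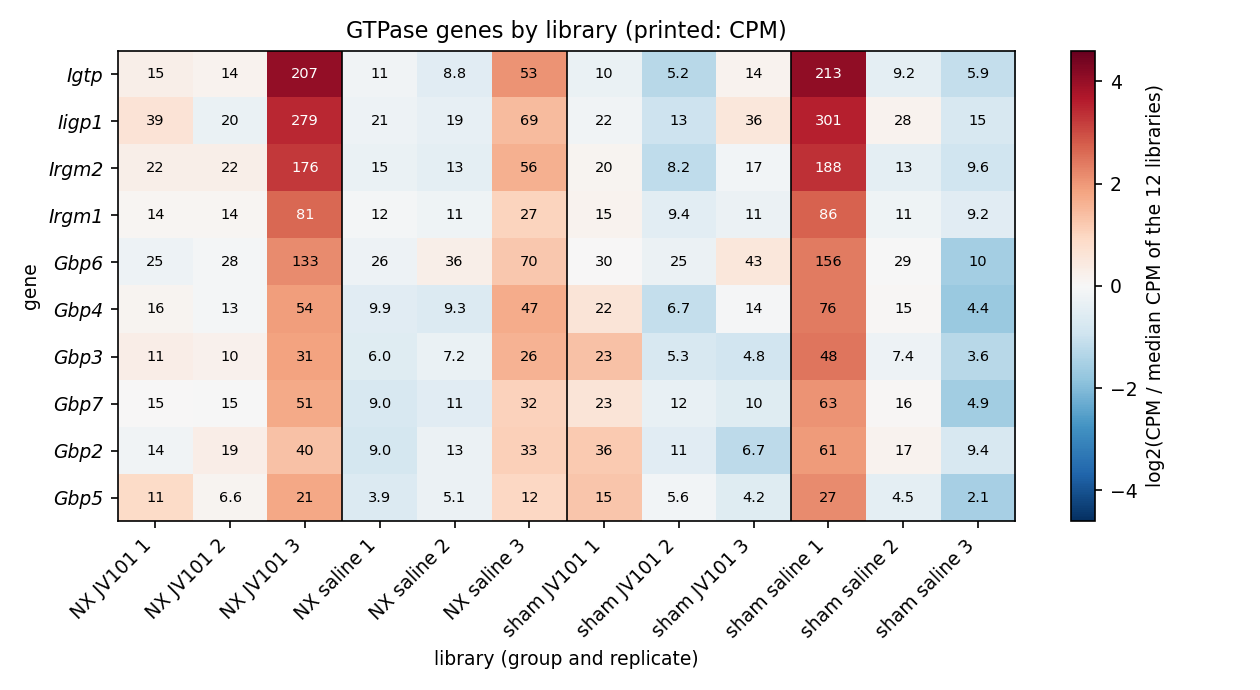
Levels of the 10 GTPase genes (rows) in the 12 libraries (columns, by group and replicate); colour is the log2 ratio of CPM to the gene's median over 12 libraries and the printed numbers are CPM. NX JV101 replicate 3 and sham saline replicate 1 are the reddest columns in every row, with NX saline replicate 3 next in most rows.

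Among the IRGs, the effector gene Iigp1 had 39.1, 20.1 and 279 CPM in the NX JV101 libraries, 21.4, 19.4 and 69.2 CPM in the NX saline libraries, 22.3, 13.1 and 35.6 CPM in the sham JV101 libraries and 301, 27.8 and 15.1 CPM in the sham saline libraries. One library of the NX JV101 group and one of the sham saline group were thus far above their 2 companions, and the groups overlapped in every pairing. In read counts, Iigp1 had 11205 in NX JV101 replicate 3 and 11775 in sham saline replicate 1, against 289 to 1278 in the other libraries, so counting error is small beside this gap.

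The regulatory IRGs followed the same order. Igtp (also known as Irgm3) had 15.1, 14.1 and 207 CPM in the NX JV101 libraries, 11.2, 8.82 and 53.2 CPM in the NX saline libraries, 10.2, 5.15 and 14.0 CPM in the sham JV101 libraries and 213, 9.18 and 5.91 CPM in the sham saline libraries. It had the largest excess of the 10 genes in these libraries, 19.3 times the median of the other 10 in NX JV101 replicate 3 and 19.9 times in sham saline replicate 1. By CPM, though not by FPKM, Igtp in all 3 NX JV101 libraries was above all 3 sham JV101 libraries. Replicates 1 and 2 were only just above the highest of them. Irgm2 had 21.9, 21.9 and 176 CPM in the NX JV101 libraries, 14.7, 13.3 and 56.4 CPM in the NX saline libraries, 19.9, 8.18 and 16.7 CPM in the sham JV101 libraries and 188, 13.3 and 9.60 CPM in the sham saline libraries. By CPM, though again not by FPKM, Irgm2 also had all 3 NX JV101 libraries above all 3 sham JV101 libraries. Irgm1 had 14.1, 14.0 and 81.1 CPM in the NX JV101 libraries, 12.2, 11.4 and 26.5 CPM in the NX saline libraries, 14.6, 9.40 and 10.8 CPM in the sham JV101 libraries and 85.6, 11.3 and 9.19 CPM in the sham saline libraries. Irgm1 varied least of the 4 IRGs among the remaining libraries, and its groups overlapped in every pairing.

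The 4 IRGs matched between the 2 high libraries more closely than the GBPs did. The ratio of sham saline replicate 1 to NX JV101 replicate 3 was 1.03 to 1.08 for the IRGs and 1.17 to 1.53 for the GBPs. By FPKM, Igtp and Irgm1 were slightly higher in NX JV101 replicate 3 (130 and 37.4) than in sham saline replicate 1 (126 and 37.0), so the order of these libraries for those genes depends on the scaling.

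Among the GBPs of chromosome 3, Gbp2, whose product gathers on the vacuoles of the parasite Toxoplasma in mouse cells, had 13.8, 19.2 and 40.1 CPM in the NX JV101 libraries, 9.0, 13.0 and 33.2 CPM in the NX saline libraries, 36.0, 11 and 6.74 CPM in the sham JV101 libraries and 60.5, 17.5 and 9.44 CPM in the sham saline libraries. Each group thus had 1 library above 30 CPM and 2 below 20 CPM. Gbp3 had 10.8, 10.1 and 31.4 CPM in the NX JV101 libraries, 6.02, 7.16 and 26.4 CPM in the NX saline libraries, 22.6, 5.29 and 4.79 CPM in the sham JV101 libraries and 47.9, 7.45 and 3.62 CPM in the sham saline libraries. Gbp5, the inflammasome promoter, had 11.3, 6.57 and 21.1 CPM in the NX JV101 libraries, 3.93, 5.09 and 11.8 CPM in the NX saline libraries, 14.7, 5.6 and 4.16 CPM in the sham JV101 libraries and 27.5, 4.5 and 2.14 CPM in the sham saline libraries. Gbp3 and Gbp5 repeated the pattern of Gbp2, in that the highest library was replicate 3 in both NX groups and replicate 1 in both sham groups. Gbp4, Gbp7, Irgm1 and Irgm2 shared this pattern. In Iigp1, Igtp and Gbp6 the highest sham JV101 library was replicate 3 instead. Gbp7, reported in mouse macrophages to help assemble the NADPH oxidase, had 15.1, 14.9 and 50.7 CPM in the NX JV101 libraries, 9.0, 10.5 and 31.5 CPM in the NX saline libraries, 22.9, 11.7 and 10.1 CPM in the sham JV101 libraries and 63.5, 15.5 and 4.89 CPM in the sham saline libraries.

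Gbp4 and Gbp6 lie in the GBP cluster of chromosome 5. Gbp6 had 25.3, 27.9 and 133 CPM in the NX JV101 libraries, 25.5, 35.7 and 70.2 CPM in the NX saline libraries, 30.4, 24.6 and 43.1 CPM in the sham JV101 libraries and 156, 29.3 and 10.1 CPM in the sham saline libraries. The 2 high libraries stood apart from the other 10, and sham saline replicate 3 was the lowest. Gbp4 had 15.8, 13.4 and 54.2 CPM in the NX JV101 libraries, 9.89, 9.28 and 46.8 CPM in the NX saline libraries, 21.6, 6.73 and 13.8 CPM in the sham JV101 libraries and 75.6, 14.9 and 4.4 CPM in the sham saline libraries. For Gbp4 the gap between the second and the third library was narrow, with 54.2 CPM in NX JV101 replicate 3 and 46.8 CPM in NX saline replicate 3.

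Below the 2 high libraries the family split. NX saline replicate 3 came next after the pair for 8 of the 10 genes, and sham JV101 replicate 1 came next for Gbp2 and Gbp5. Relative to the median of the remaining 9 libraries, NX saline replicate 3 had 2.34 to 5.21 times more of the IRGs and 2.32 to 3.69 times more of the GBPs. Sham JV101 replicate 1 had 0.912 to 1.35 times that median for the IRGs and 1.09 to 3.16 times for the GBPs, with Gbp3, Gbp5 and Gbp2 at the top. In that library Gbp2, Gbp3 and Gbp5 were thus well above that median while the IRGs were near it. The libraries also differed in markers of other cells. Summed endothelial markers were 1752 CPM in NX saline replicate 3, the highest of the 12, and 1577 CPM in sham JV101 replicate 1. NX saline replicate 3 also had the highest sums of dendritic (36.1 CPM), natural killer (2.98 CPM) and mesothelial markers (111 CPM). Sham JV101 replicate 1 had 1126 CPM of fibroblast and 745 CPM of macrophage markers and the highest neutrophil sum, 40.04 CPM. NX JV101 replicate 2 had 1641 CPM of endothelial, 1193 CPM of fibroblast, 804 CPM of macrophage and 10.1 CPM of neutrophil markers. Its 10 GTPase genes summed to 162 CPM, against 215 CPM in sham JV101 replicate 1 and 425 CPM in NX saline replicate 3. The part of these cells in the GTPase levels was not tested. NX saline replicate 3 had a mitochondrial share of 66.5%, so that its place depends on the scaling: by FPKM, whose denominator holds the mitochondrial reads, it came next for 6 genes and sham JV101 replicate 1 for 4. The part of the mitochondrial share in that library's levels was not tested.

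Per length of gene, the order of the family in the high libraries differed from that of the medians over the other 10 libraries. In NX JV101 replicate 3, FPKM was 130 for Igtp, 102 for Iigp1, 63.7 for Irgm2, 37.4 for Irgm1 and 35.0 for Gbp6, and the other GBPs had 8.90 to 20.8. In sham saline replicate 1, the order of these 5 genes was the same, with FPKM of 126, 103, 63.9, 37.0 and 38.4, except that Gbp6 stood above Irgm1. Over the other 10 libraries, the median FPKM was 6.78 for Iigp1, 6.15 for Gbp6, 5.76 for Igtp, 4.98 for Gbp2, 4.67 for Irgm2 and 4.47 for Irgm1. It was 2.41 for Gbp4, 2.19 for Gbp3, 2.02 for Gbp7 and 1.69 for Gbp5. The ranges of neighbours in this order overlapped, as the plot of FPKM by gene shows. The other 10 libraries did not share a single order. In NX saline replicate 3, Igtp, Iigp1, Irgm2 and Gbp6 ranked 1, 2, 3 and 4, as in sham saline replicate 1.

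**Figure D3:**
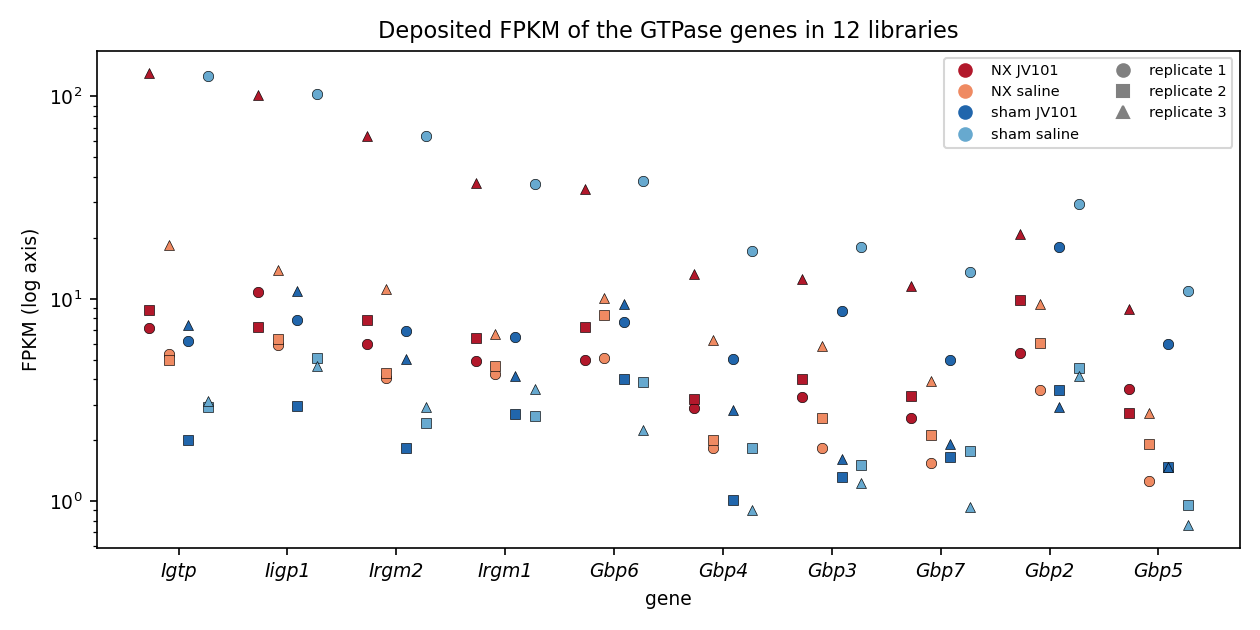
Deposited FPKM (log axis) of the 10 GTPase genes in 12 libraries; colour gives the group, marker shape the replicate. NX JV101 replicate 3 and sham saline replicate 1 lie above the rest for each gene, at about 130 and 126 FPKM for Igtp against 2.01 to 18.4 FPKM in the other libraries.

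Among the 10 libraries outside the pair, the genes still varied together. Pearson's r of log2 CPM over these 10 libraries was 0.80 to 0.97 for the 6 pairs of IRGs, 0.42 to 0.93 for the 15 pairs of GBPs and 0.37 to 0.92 for the 24 pairs of a GBP with an IRG. The libraries share depth and scaling across genes, and these values are descriptions without a p-value.

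The effect of NX under saline was set against this spread. Over all 12 libraries, the 10 genes had negative log2 fold changes in NX saline against sham saline, with a median of -0.74 beside a median of 0.02 over all tested genes. None of the 8 members given a p passed the edgeR quasi-likelihood test at an adjusted p of 0.05, and neither did any of the 14412 genes (0%); 524 genes (3.64%) had an unadjusted p under 0.05, among them 0 members. The groups overlapped for 10 of the 10 members; over all tested genes, 4.9% had all NX saline libraries higher and 5.92% had all of them lower. Igtp averaged 24.4 ± 25 CPM in NX saline libraries and 76.0 ± 119 CPM in sham saline libraries (SD, n = 3 each), and its log2 fold change was -1.65 ± 1.36 (SE). Gbp2 averaged 18.4 ± 13.0 CPM in NX saline libraries and 29.2 ± 27.5 CPM in sham saline libraries, with a log2 fold change of -0.68 ± 0.78 (SE). Without sham saline replicate 1, the direction turned for 10 of the 10 genes and the median was 1.11. With that library left out, the log2 fold changes would thus read as higher in NX saline, again with 0 genes called. Among the NX saline libraries, however, replicate 3 stood apart. The 10 genes summed to 425 CPM in it, against 123 and 134 CPM in replicates 1 and 2. Those values lay between the 74.4 CPM of sham saline replicate 3 and the 151 CPM of sham saline replicate 2.

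JV101 in NX mice was compared next, against the same NX saline libraries that were set against sham saline above, so that both comparisons share them. The 10 genes had positive log2 fold changes in NX JV101 against NX saline, with a median of 0.80 beside 0.01 over all tested genes. None of the 8 members passed the edgeR test, 0% of all genes did, and 345 genes (2.39%) had an unadjusted p under 0.05, with 0 members among them. For 0 members did the groups stand apart, against 4.52% of all genes with every NX JV101 library higher and 3.69% with every one lower. Igtp averaged 78.6 ± 111 CPM in NX JV101 libraries and 24.4 ± 25 CPM in NX saline libraries (SD, n = 3 each), a log2 fold change of 1.70 ± 1.36 (SE). Gbp5 averaged 13.0 ± 7.41 CPM in NX JV101 libraries and 6.94 ± 4.25 CPM in NX saline libraries, a log2 fold change of 0.92 ± 0.84 (SE). Without NX JV101 replicate 3, the direction turned for 9 of the 10 genes, all but Gbp5, and the median was -0.31.

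JV101 in sham mice gave negative values. The 10 genes had a median log2 fold change of -1.08 in sham JV101 against sham saline, beside 0.03 over all tested genes, and 10 of the 10 were negative. None of the 8 members passed the edgeR test, 0% of all genes did, and 245 genes (1.70%) had an unadjusted p under 0.05, with 0 members among them. The libraries of these groups overlapped for each of the 10 members, beside 1.76% of all genes with all sham JV101 libraries higher and 2.07% with all lower. Igtp averaged 9.79 ± 4.45 CPM in sham JV101 libraries and 76.0 ± 119 CPM in sham saline libraries (SD, n = 3 each), a log2 fold change of -2.95 ± 1.43 (SE) with an adjusted p of 1.00. Irgm1 averaged 11.6 ± 2.68 CPM in sham JV101 libraries and 35.4 ± 43.5 CPM in sham saline libraries, a log2 fold change of -1.61 ± 0.88 (SE). Without sham saline replicate 1 the direction turned for 10 of the 10 genes, with a median of 0.49. This comparison and that of NX under saline share the sham saline libraries, and so share this library.

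The comparison of NX with sham under JV101 rested on the other high library. The median log2 fold change of the 10 genes in NX JV101 against sham JV101 was 0.95, beside 0.00 over all tested genes, and 10 of the 10 were positive. None of the 8 members passed the edgeR test, 0% of all genes did, and 299 genes (2.07%) had an unadjusted p under 0.05, with 0 members among them. In CPM, Igtp and Irgm2 were the 2 members whose groups did not overlap, with all NX JV101 libraries higher. Over all tested genes 2.69% had this pattern and 2.42% the opposite one. By FPKM the groups overlapped for both genes. NX JV101 replicate 1 had an FPKM of 7.13 for Igtp, against 7.38 in sham JV101 replicate 3. For Irgm2 it had 5.98, against 6.95 in sham JV101 replicate 1. Igtp averaged 78.6 ± 111 CPM in NX JV101 libraries and 9.79 ± 4.45 CPM in sham JV101 libraries (SD, n = 3 each), a log2 fold change of 3.00 ± 1.43 (SE). Irgm2 averaged 73.2 ± 88.7 CPM in NX JV101 libraries and 14.9 ± 6.06 CPM in sham JV101 libraries, a log2 fold change of 2.29 ± 1.16 (SE). Without NX JV101 replicate 3 the log2 fold change was 0.57 for Igtp and 0.55 for Irgm2, the median was 0.087, and 3 genes turned.

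The interaction asks whether the effect of JV101 differed between NX and sham mice. It was positive for 10 of the 10 genes, with a median of 1.55 on the log2 scale beside -0.03 over all tested genes, and each high library pushed it the same way. Igtp had 4.65 ± 1.97 (SE), Irgm2 3.62 ± 1.62 and Irgm1 2.74 ± 1.23, and these were the 3 members of 8 with an unadjusted p under 0.05 (0.0366, 0.0461 and 0.0464 in the edgeR fit), against 1.78% of all genes. After adjustment over all genes their p was 1.00, and 0% of the genes were called. With sham saline replicate 1 left out, 5 genes turned and the median came to 0.05; without NX JV101 replicate 3 it was 0.80. With both libraries left out, the medians were 1.08 for NX saline against sham saline, -0.31 for NX JV101 against NX saline, 0.46 for sham JV101 against sham saline, 0.08 for NX JV101 against sham JV101 and -0.82 for the interaction, and edgeR called 0 genes in each. That choice was made after the data were seen.

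**Figure D4:**
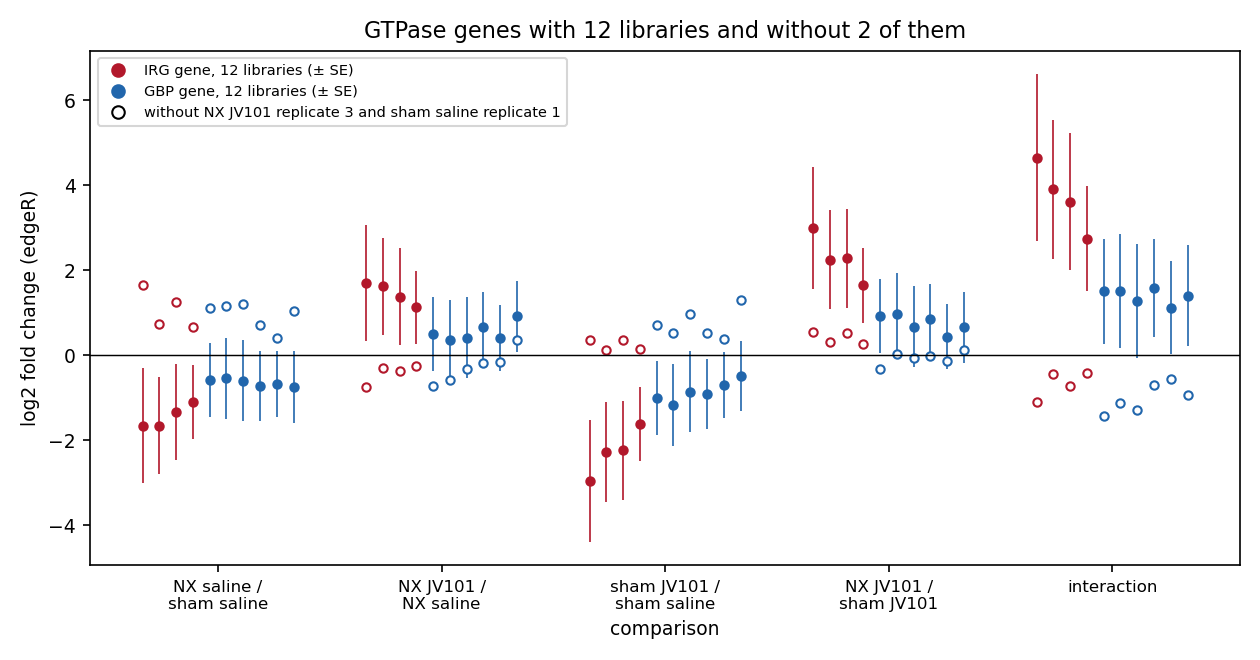
Log2 fold changes of the 10 GTPase genes in 4 comparisons and the interaction; filled points with bars (± SE) use 12 libraries, with IRGs in red and GBPs in blue, and open points leave out NX JV101 replicate 3 and sham saline replicate 1. Open points lie on the other side of 0 for 10 of 10 genes in NX saline against sham saline, sham JV101 against sham saline and the interaction.

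Other relatives of the family showed how far the pattern reaches. Of 24 further symbols looked for, of GBPs, IRGs and other GTPases (Gvin1, Gvin2, Gvin3, Mx1 and Mx2), 16 were in the table and 15 were tested. Among those tested, 9 had both high libraries above all other 10, with Gvin1 and Gvin2 among the 9. Over all tested genes the share was 1.66%. Gbp8, Gbp10, Irgq, 9930111J21Rik1, 9930111J21Rik2 and Gvin3 did not have this pattern. Gvin3 was lower, at 0.51 times the median of the other 10 in NX JV101 replicate 3 and 0.54 times in sham saline replicate 1. For 9930111J21Rik1 these ratios were 1.18 and 0.35, for Gbp8 2.00 and 4.42. F830016B08Rik, an IRG gene of chromosome 18, like Iigp1, had 373 CPM in NX JV101 replicate 3 and 442 CPM in sham saline replicate 1, against a median of 7.51 CPM in the other 10 libraries, which was 49.7 and 58.8 times higher. Its counts there were 14974 and 17266, and NX saline replicate 3 followed with 2800. Gm4841, another IRG gene of that chromosome, had 1289 counts in NX JV101 replicate 3 and 1761 in sham saline replicate 1; NX saline replicate 3 held 335 and the rest 0 to 42. Gm12250, the gene of the effector IRG known as Irgb10, had 18.2 CPM in each of the high libraries and a median of 0.741 CPM in the other 10. Irgq, an IRG-like gene not known to respond to interferon, had 16.9 CPM in NX JV101 replicate 3 and 25.5 CPM in sham saline replicate 1, against a median of 16.6 CPM. The near-identical gene pair Tgtp1 and Tgtp2, and likewise Gbp6 and Gbp10, may share reads, and how the counting split them is not given in the sources used here, so the values of each are uncertain.

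Genes of interferon-gamma production, its receptor and its signalling were looked at next. Socs1, a feedback inhibitor of the pathway, had 2.24 CPM in NX JV101 replicate 3 and 2.35 CPM in sham saline replicate 1, both above all others, against a median of 0.67 CPM in the other 10. Irf1, the ISRE-binding factor, had 34.9 CPM and 55.6 CPM in the same order, against a median of 15.9 CPM. Batf2, an interferon-induced transcription factor gene, had 1.37 CPM and 2.66 CPM, against a median of 0.57 CPM. For both Irf1 and Batf2, sham JV101 replicate 1 was above NX JV101 replicate 3, with 46.6 CPM of Irf1 and 1.45 CPM of Batf2. The receptor genes Ifngr1 and Ifngr2 and the kinase genes Jak1 and Jak2 stood at 1.01 to 1.16 times the median of the other 10 in NX JV101 replicate 3 and at 0.69 to 1.52 times in sham saline replicate 1. Ifng itself, the gene of the ligand, had 0 counts in NX JV101 replicate 3 and 7 in sham saline replicate 1, and 0 to 2 counts in the other libraries. At this depth a count of 0 allows up to 0.0748 CPM in NX JV101 replicate 3, by a limit of 3 counts that covers counting error only. No gene of the signalling list was called by edgeR in any comparison.

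Of 26 tested genes of antigen presentation, chemokines and other known targets of interferon-gamma, 10 had both libraries above all others and 16 did not. The share over all tested genes was 1.66%. The median ratio was 1.43 in NX JV101 replicate 3 and 1.66 in sham saline replicate 1, and the list's summed level, 1533 CPM and 1852 CPM in the same order, was inside the range of the other 10 libraries, 564 to 2019 CPM. Tap1, which carries peptides into the endoplasmic reticulum, had 33.1 CPM in NX JV101 replicate 3 and 41.4 CPM in sham saline replicate 1, against a median of 7.30 CPM. Nlrc5, a transactivator of class I antigen presentation genes, had 17.9 and 24.5 CPM in the same order, against a median of 4.88 CPM. Psme2, a proteasome activator subunit, was only 1.32 and 1.40 times the median. Ciita, the transactivator of class II genes, was at 0.57 and 1.24 times the median, and the class II genes H2-Aa, H2-Ab1, H2-Eb1 and Cd74, picked after their values were seen, were at 0.87 to 1.39 times.

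Of 28 tested genes best known from type I interferon, 13 had both libraries above all others and 15 did not. Their median ratio was 2.19 in NX JV101 replicate 3 and 2.36 in sham saline replicate 1. Over the 10 GTPase genes the same medians were 4.47 and 6.06, with Iigp1 and Gbp6, by whose levels the set was chosen, among them. Ifit1, which binds foreign RNA, had 23.7 CPM in NX JV101 replicate 3 and 17.7 CPM in sham saline replicate 1, against a median of 3.58 CPM. Usp18, which removes the ubiquitin-like modifier Isg15, had 8.70 and 6.55 CPM in the same order, against a median of 2.12 CPM. For both genes NX JV101 replicate 3 was the higher library, the reverse of the GTPase genes. Of 21 tested partners of the GTPases, in the inflammasome and autophagy, 0 had both libraries above the rest. Over all tested genes the share was 1.66%, so this count is near it. The partners had median ratios of 1.01 in NX JV101 replicate 3 and 0.964 in sham saline replicate 1. Aim2, a DNA sensor of the inflammasome, had the smallest unadjusted p of that list, 0.0761, in NX saline against sham saline.

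**Figure D5:**
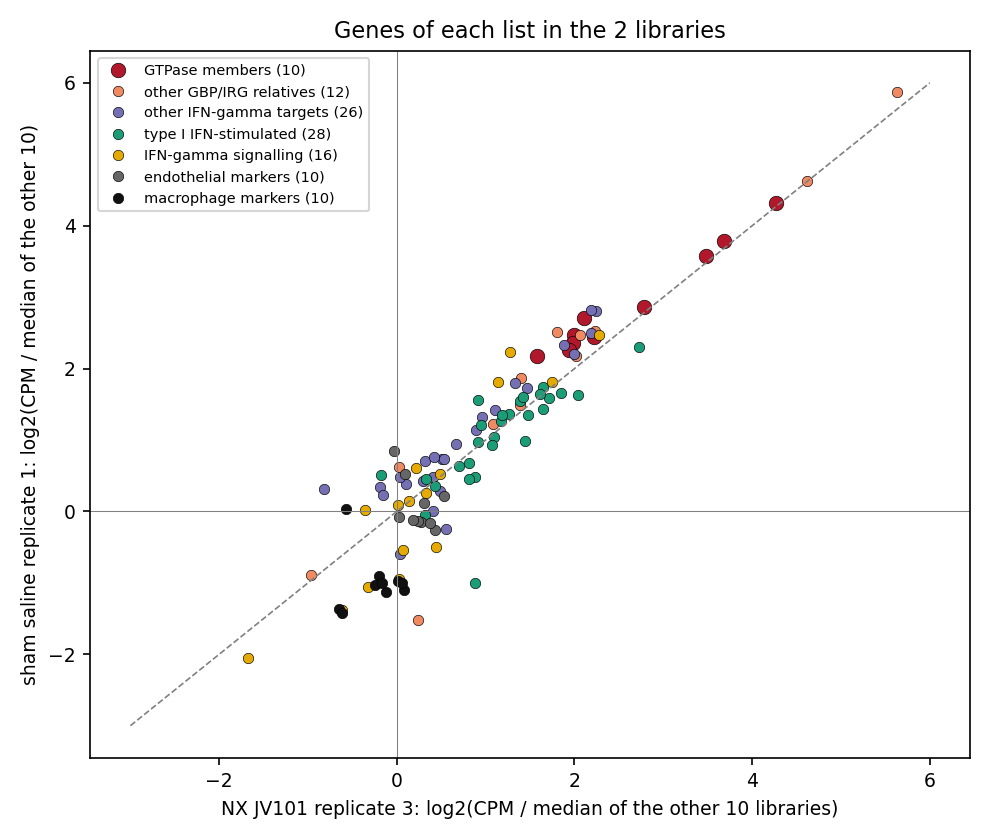
Genes of 7 lists by their log2 ratio to the median of the other 10 libraries in NX JV101 replicate 3 (horizontal) and sham saline replicate 1 (vertical), for genes with a median of at least 0.3 CPM; the dashed line marks equal ratios. The GTPase genes and their relatives reach the upper right, type I interferon genes lie lower on the line, and endothelial and macrophage markers lie mostly near or below 0.

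Markers of other cell types were compared in the same libraries. In each of the 11 cell type lists, 0 tested genes had both libraries above all other 10, beside 1.66% of all tested genes. These lists held 1 to 10 tested genes each, so a count of 0 is near that share. The summed macrophage markers were 390 CPM in NX JV101 replicate 3 and 208 CPM in sham saline replicate 1, inside the range of the other 10 libraries, 156 to 804 CPM. The summed endothelial markers were 1069 CPM and 979 CPM in the same order, inside the range of 308 to 1752 CPM. The summed T cell markers were 1.10 and 1.25 CPM, inside the range of 0.96 to 4.39 CPM, and the summed B cell markers were 0.72 and 3.38 CPM, with NX JV101 replicate 3 below the range of 1.58 to 14.95 CPM. NX JV101 replicate 3 was also below the other 10 in mesothelial markers, with 33.4 CPM against 34.6 to 111 CPM, whereas sham saline replicate 1 had 63.1 CPM. The summed natural killer cell markers were 0.27 CPM and 0.69 CPM in the order used above, inside the range of 0.15 to 2.98 CPM. Of 8 such markers, 5 in NX JV101 replicate 3 and 2 in sham saline replicate 1 had no count, Ncr1 and Eomes in both. In the other libraries, 1 to 6 of the 8 had no count. Gzma, the 1 marker of that list that was tested, stood at 1.70 and 2.25 times the median, with at most 21 counts in a library. The mitochondrial shares of NX JV101 replicate 3 and sham saline replicate 1 were 38.3% and 36.7%, the lowest 2 of the 12, and the pair was also first when mitochondrial genes were left out of the scaling. The part of this share in the result was not otherwise tested.

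The genes whose pattern was most like that of the family were found by the correlation of log2 CPM with the mean of the 10 genes over 12 libraries, among 12048 genes outside the set. Since 2 libraries dominate that measure, r over the other 10 libraries is given instead as a description. In order of likeness the genes reported here were Tgtp2 (r 0.96), Tap1 (0.94), Parp10 (0.93), Tap2 (0.86), F830016B08Rik (0.83), Nlrc5 (0.92), Tgtp1 (0.91), Nr4a1 (0.90) and Apol9a (0.74). Nr4a1, an immediate early transcription factor, had 162 CPM in NX JV101 replicate 3 and 159 CPM in sham saline replicate 1, against a median of 83.6 CPM in the other 10. Among the genes most like Iigp1 taken alone were Igtp, Irgm2, F830016B08Rik and Irgm1. Gbp6 taken alone was most like Bcl2l11, Zbtb10, Gbp10, Igtp and Tap1.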

How the data were processed

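Counts per gene and FPKM of 12 libraries were deposited by the authors. The submitters' processing notes name fastp, HISAT2, HTSeq and the GRCm39 assembly; their versions, the annotation and whether strand was used were not given in the sources used here. Libraries were prepared from 1.3 µg of RNA per the labels' protocols. Counts in the deposited table were tested with edgeR 4.0.16 (R 4.3.3): filterByExpr (minimum count 10, minimum total 15), TMM factors, and a quasi-likelihood fit with 4 groups over 12 libraries, 2-sided, with Benjamini-Hochberg adjustment over all 14412 genes at a threshold of 0.05. The SE of a log2 fold change is its size over the square root of the F statistic. The deposited FPKM gave levels per length and a limma 3.58.1 alternative on log2(FPKM + 1) and log2(FPKM + 0.1), a scale that understates changes of low genes. DESeq2 1.42.0 was another alternative. Precision is set by the 3 libraries per group. The members, gene lists and tests were chosen with earlier results of these data known. Genes named beyond the members were the listed relatives, up to 4 per list with the smallest unadjusted p, and those most alike by correlation; Socs1, Irf1, Batf2, the receptor, kinase and class II genes and those named in the closing section were chosen after their values were seen. A gene of the signalling list is not reported here.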

Additional observations from a re-analysis of the deposited data

How the results depend on the processing

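Over 60 results (10 genes and their median, and the count of genes called, in 4 comparisons and the interaction), another scaling of the counts, other filters, mitochondrial genes left out, the replicate block, fitting only the groups compared and DESeq2 turned 0 directions (48 results for the groups compared, which leaves out the interaction). The counts of genes called have no direction, so they could not turn. DESeq2 called 1 gene for NX saline over sham saline, 8 for NX JV101 over NX saline and 0 in the other tests, with 0 members among them, where edgeR called 0. On log2(FPKM + 1) and log2(FPKM + 0.1), limma turned Gbp6 in NX saline against sham saline (0.00877 and 0.11) and Gbp5 in sham JV101 against sham saline (0.020 and 0.20); the cause was not tested. Replicate numbers gave no sign of pairing. Deviations from the group means correlated between same-numbered libraries at -0.61 to 0.30 (18 pairs), against -0.64 to 0.65 for other numbers (36 pairs). With 3 libraries per group these deviations depend on each other, so the ranges cannot exclude a pairing. With the replicate block the medians were -0.63, 0.72, -1.10, 0.95 and 1.52 in the order of the comparisons in the report, and edgeR called 0 genes.

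Leaving out libraries turned directions. Without NX JV101 replicate 3 and sham saline replicate 1 together, chosen after the data were seen, 47 of the 60 results turned. The 60 include the counts of genes called, which could not turn. The ranges below cover leaving out each library in turn and both together, as log2 fold changes. For NX saline against sham saline they ranged from -1.55 to 1.11 for the median, -2.45 to 0.77 for Iigp1, -2.88 to 1.69 for Igtp, -1.55 to 0.70 for Irgm1, -2.28 to 1.29 for Irgm2, -1.38 to 0.45 for Gbp2, -1.55 to 1.25 for Gbp3, -1.69 to 1.19 for Gbp4, -1.31 to 1.07 for Gbp5, -1.09 to 1.16 for Gbp6 and -1.49 to 0.74 for Gbp7. For NX JV101 against NX saline they ranged from -0.31 to 1.51 for the median, -0.30 to 2.45 for Iigp1, -0.74 to 2.95 for Igtp, -0.25 to 1.61 for Irgm1, -0.36 to 2.36 for Irgm2, -0.16 to 1.13 for Gbp2, -0.32 to 1.39 for Gbp3, -0.58 to 1.52 for Gbp4, -0.72 to 1.01 for Gbp6 and -0.18 to 1.45 for Gbp7. For sham JV101 against sham saline they ranged from -1.77 to 0.49 for the median, -2.80 to 0.15 for Iigp1, -3.50 to 0.39 for Igtp, -2.07 to 0.18 for Irgm1, -2.75 to 0.39 for Irgm2, -1.73 to 0.42 for Gbp2, -1.98 to 1.00 for Gbp3, -1.69 to 0.57 for Gbp4, -1.24 to 1.33 for Gbp5, -1.51 to 0.74 for Gbp6 and -1.41 to 0.56 for Gbp7. For NX JV101 against sham JV101 they ranged from 0.078 to 1.63 for the median, 0.55 to 3.50 for Igtp, 0.54 to 2.72 for Irgm2, -0.13 to 1.47 for Gbp2, -0.072 to 1.80 for Gbp3, -0.31 to 1.30 for Gbp6 and -0.0045 to 1.31 for Gbp7. For the interaction they ranged from -0.82 to 2.51 for the median, -0.43 to 4.70 for Iigp1, -1.10 to 5.88 for Igtp, -0.41 to 3.20 for Irgm1, -0.72 to 4.58 for Irgm2, -0.55 to 2.15 for Gbp2, -1.29 to 2.40 for Gbp3, -1.11 to 2.67 for Gbp4, -0.92 to 2.16 for Gbp5, -1.44 to 2.02 for Gbp6 and -0.71 to 2.34 for Gbp7. With 1 library left out an arm has 2 libraries, and edgeR still called 0 genes in each of these fits. The members' counts, 69 to 11775 per library, make counting error small; 3 libraries per group set the limit.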

Other observations

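Over all tested genes, 39 (0.271%) were at least 3 times the median of the other 10 libraries in both NX JV101 replicate 3 and sham saline replicate 1. These were 9 of the 10 GTPase genes (all but Gbp2), 6 of their relatives, 12 genes of the other interferon lists and 12 genes in no list. Iigp1 and Gbp6, by whose levels the set was chosen, are among the 9. At 10 times or more, 7 genes remained: Igtp, Iigp1, Irgm2, the relatives Gm4841, F830016B08Rik and Gm12250, and Apol9a. Apol9a, an apolipoprotein L gene known as an interferon target in mice, had 4.44 CPM in NX JV101 replicate 3 and 4.66 CPM in sham saline replicate 1, against a median of 0.21 CPM in the other 10. Its neighbour Apol9b had 1.92 and 2.53 CPM in the same order, against a median of 0.35 CPM, and these near-identical genes may share reads.

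Cd274, which encodes the checkpoint ligand PD-L1, had 24.6 CPM in NX JV101 replicate 3 and 38.4 CPM in sham saline replicate 1, against a median of 5.43 CPM. The chemokine gene Cxcl9 had 8.58 and 12.7 CPM in the same order, against a median of 1.82 CPM. Irs2, which encodes an adaptor of the insulin receptor and is in no interferon list, had 55.7 and 66.7 CPM, against a median of 16.8 CPM. Ddx60, a helicase gene known to respond to interferon, had 10.1 and 9.52 CPM, against a median of 2.56 CPM.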
